A study of Mus musculus with 10 samples.

Results

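Activity-regulated immediate early genes were examined as a group of 10 transcripts, Arc, Fos, Fosb, Junb, Egr1, Egr2, Egr3, Egr4, Npas4 and Nr4a1, in the neonatal mouse brain. They were listed by symbol, though with earlier results of these data known, and all 10 were among the 18444 genes of the expression table. Whole brains were taken at postnatal day 3 from male mice of the C57BL/6N strain, of which 5 were Arid1b heterozygous (HT, Arid1b+/-) and 5 were wild type (WT), with 1 RNA-Seq library per mouse. Arid1b encodes a DNA-binding subunit of the BAF chromatin remodeling complex. The HT mice carried 1 engineered allele made with Cas9 nickase, in which exon 5 holds a constitutive protein-truncating change, and all came from 1 mouse line. Pups shared a cage with their mother and with littermates of other genotypes, and the labels name no treatment and no litters. The comparison asked whether loss of 1 Arid1b allele went with other levels of these genes in the neonatal brain, and whether the genes moved together from mouse to mouse.

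Immediate early genes are transcribed within minutes of a stimulus and need no new protein synthesis for it. In neurons, calcium that enters through NMDA receptors and L-type channels drives kinases that act on CREB, SRF with its partner ELK1, and MEF2, factors already bound at these genes. Their messenger RNAs are short-lived, so a steady-state level reflects recent activity, and handling or the time to dissection is known to move it. Most members encode transcription factors that switch on a later wave of effector genes, whereas Arc encodes a synaptic protein.

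Promoter sequences from RefSeq (GRCm38.p6) are shown for the 6 members with a single start in the reference table, because the pathways above act through short motifs there. Each run holds the 250 bases before the transcription start, 5′ to 3′ on the strand of the gene, and capitals mark the CRE core site TGACG or its reverse complement CGTCA, the central part of the sequence that CREB binds.
Fos: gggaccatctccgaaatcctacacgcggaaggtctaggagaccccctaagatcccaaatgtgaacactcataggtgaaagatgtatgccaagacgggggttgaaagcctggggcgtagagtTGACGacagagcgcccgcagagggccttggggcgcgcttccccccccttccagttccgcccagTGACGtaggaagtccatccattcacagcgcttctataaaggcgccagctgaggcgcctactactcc
Fosb: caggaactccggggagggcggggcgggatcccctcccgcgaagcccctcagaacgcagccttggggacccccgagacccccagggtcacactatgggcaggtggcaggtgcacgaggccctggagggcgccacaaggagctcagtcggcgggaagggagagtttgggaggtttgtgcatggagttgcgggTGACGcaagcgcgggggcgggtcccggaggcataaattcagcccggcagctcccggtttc
Junb: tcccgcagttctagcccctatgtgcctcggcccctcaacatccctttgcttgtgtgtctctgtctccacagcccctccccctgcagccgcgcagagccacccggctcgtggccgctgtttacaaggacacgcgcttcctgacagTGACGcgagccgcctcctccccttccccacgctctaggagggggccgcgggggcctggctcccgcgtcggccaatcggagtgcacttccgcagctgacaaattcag
Egr4: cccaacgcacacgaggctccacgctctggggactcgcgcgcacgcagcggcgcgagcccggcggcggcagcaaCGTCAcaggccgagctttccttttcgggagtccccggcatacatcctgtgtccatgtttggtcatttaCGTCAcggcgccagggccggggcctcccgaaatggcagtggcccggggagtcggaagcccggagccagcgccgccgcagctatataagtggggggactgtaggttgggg
Npas4: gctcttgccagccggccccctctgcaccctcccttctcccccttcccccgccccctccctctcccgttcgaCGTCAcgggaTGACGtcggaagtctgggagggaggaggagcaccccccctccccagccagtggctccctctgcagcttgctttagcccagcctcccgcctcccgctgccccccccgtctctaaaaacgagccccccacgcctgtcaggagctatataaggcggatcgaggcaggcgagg
Nr4a1: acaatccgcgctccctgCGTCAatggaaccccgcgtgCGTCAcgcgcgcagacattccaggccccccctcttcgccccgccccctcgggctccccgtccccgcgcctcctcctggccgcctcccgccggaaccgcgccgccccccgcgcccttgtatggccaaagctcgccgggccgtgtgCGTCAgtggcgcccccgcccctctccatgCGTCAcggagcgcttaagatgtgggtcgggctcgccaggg

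The windows lie at chr12:85473640-85473889 on the plus strand for Fos, chr7:19310046-19310295 on the minus strand for Fosb, chr8:84978749-84978998 on the minus strand for Junb, chr6:85513590-85513839 on the minus strand for Egr4, chr19:4989972-4990221 on the minus strand for Npas4 and chr15:101266596-101266845 on the plus strand for Nr4a1. The motif search used 300 bases (250 before and 50 after the start) and both strands. Reference windows existed for 7 of the 10 members, Egr2 having several starts, and Arc, Egr1 and Egr3 were not matched. A CRE core site was found for 7 of 7 members with a window, against 6228 of the 27025 genes in the table. By window it was found in 9 of their 11, against 20.8% of the 32851 windows in the table. Of these 9, 3 are overlapping Egr2 windows that hold the same core sites, so the count by window repeats that stretch. The Npas4 window held a core site on each strand, beginning at positions -179 and -169 from the start, and the Nr4a1 window held 4. The full palindrome TGACGTCA was found in 0 of the 11 windows, against 1.79% of all windows. The AP-1 site TGACTCA, bound by dimers of Fos and Jun proteins, was found in 0 of 11, against 5.20%. Of the motifs read by EGR proteins, GCGTGGGCG was found in 0 of 11, against 0.612%, and GCGGGGGCG in Fosb and Nr4a1, against 2.91% of all windows. The CArG box, the SRF motif, was found in 4 of the 5 Egr2 windows, 3 of which hold the same site, against 1.63% of all windows. The letters TATAAA were found from position -33 of Fos and at the start of Junb, against 13.6%, and CACGTG in 1 Egr2 window, against 7.15%. These matches describe letters in a fixed window and not bound sites, and the core site overlaps the full palindrome by construction.

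Values are normalised read counts, the estimated reads of a gene after normalisation to the library by the authors with DESeq2, and whether a correction for transcript length entered it is not given in the sources used here. A best fit to small values put 1 unit close to 1 read. Only 22.2% to 59.8% of these values per library were whole multiples, so that the unit is an estimate. Totals lay between 27.24 and 29.03 M per library (M, 1000000). Arid1b itself was at 2101 ± 343 (SD, n = 5) in HT and 3335 ± 203 in WT, 63.0% of the WT mean, with no overlap between the groups (two-sided exact permutation p = 0.00794, the smallest that 5 against 5 libraries allow), although its adjusted p in the limma fit over all genes was 0.39. The tissue label was met by the neuronal and glial markers examined, none of which was at 0 in any library. HT 4 stood apart from the other libraries, scoring 53.9 on the first principal component where the others scored -23.4 to 9.81, and with a Spearman correlation of -0.474 between transcript length and the deviation of its genes. Values without HT 4 are given beside the results that it moved.

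For no immediate early gene did the difference between HT and WT pass the test. In the limma fit over 17020 genes, 0 of the 10 members had an adjusted p under 0.05, as did 0% of all genes tested, and 0 had an unadjusted p under 0.05, against 3.41% of all genes (1.47% higher and 1.93% lower in HT). The groups overlapped for 10 of 10 members, and 0.629% of all genes had groups that did not overlap. The HT mean lay above the WT mean on the log2 scale for 6 members and below it for 4, and 46.4% of all genes lay above. The median log2 fold change of the members was 0.05, against -0.0074 over all genes tested. The adjusted p was 1.00 for each member, and the exact permutation p was above 0.05 for each. Without HT 4, 0 members and 0.0118% of all genes had an adjusted p under 0.05. As the brains were processed whole, fewer cells expressing a gene and less RNA per cell cannot be told apart.

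**Figure D1:**
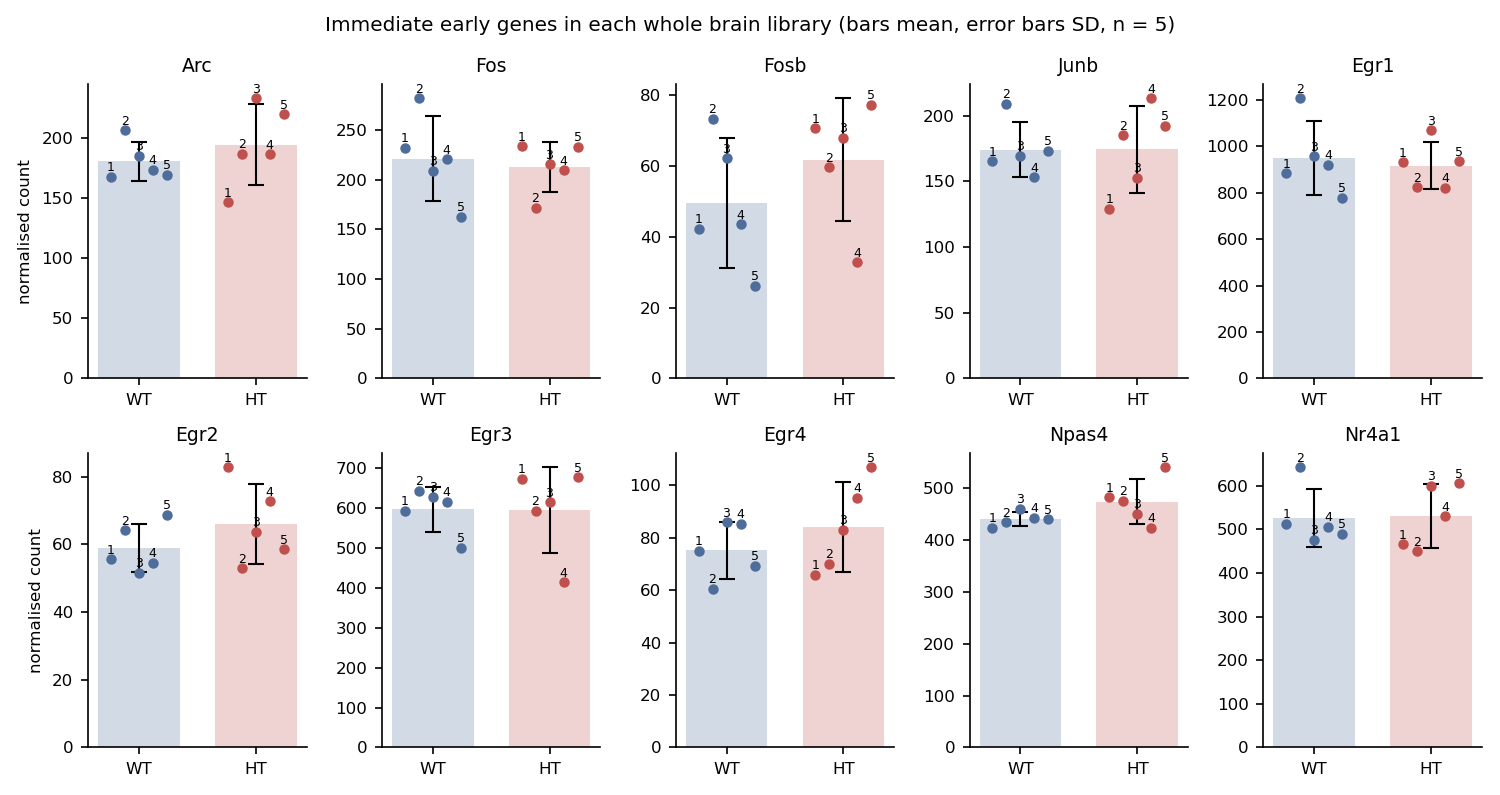
Normalised read count (y axis, from 0) of each immediate early gene in WT and HT whole brains; points are single libraries with their replicate number, bars the mean and error bars the SD of 5 libraries. The WT and HT points overlap in every panel, and Fosb shows the widest spread, from 26.2 in WT 5 to 77.3 in HT 5.

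Arc (chr15:74669083-74672570, minus strand) encodes a cytoskeleton-associated protein that controls the removal of AMPA receptors from synapses. Its normalised counts were 146, 187, 233, 186 and 219.5 in HT 1 to HT 5 and 168, 206, 185, 173 and 169 in WT 1 to WT 5. The HT libraries enclosed the whole WT range, with HT 1 lowest and HT 3 highest of all 10. HT and WT differed by a log2 fold change of 0.09 (SE 0.125, 95% interval -0.18 to 0.37, exact permutation p = 0.508).

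The AP-1 members showed the lowest and most variable level in Fosb. Fos (chr12:85473890-85477273, plus strand), the prototype immediate early gene and a partner of Jun proteins, was at 234, 172, 216, 209 and 233 in HT and at 232, 282, 209, 220.5 and 163 in WT, in replicate order. Both extremes, WT 2 and WT 5, were WT libraries, and 0 of the 5 HT values exceeded the highest WT value. The log2 fold change of Fos was -0.04 (SE 0.138, 95% interval -0.34 to 0.26, exact permutation p = 0.841), and it turned positive without HT 2 (0.03) or WT 2 (0.05).

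Fosb (chr7:19302696-19310051, minus strand) encodes a relative of Fos whose truncated splice product, deltaFosB, is long-lived and accumulates with repeated stimulation. It was at 70.7, 59.7, 68.0, 32.8 and 77.3 in HT and at 42.2, 73.3, 62.2, 43.5 and 26.2 in WT. HT 4 was far below the other HT libraries, while WT 2 and WT 3 lay among the high HT values. Fosb had the largest log2 fold change of the members, 0.34 (SE 0.288, 95% interval -0.28 to 0.96, exact permutation p = 0.349), with 4 of 5 HT libraries above the WT mean. It was 0.55 without HT 4 (95% interval 0.02 to 1.08, limma unadjusted p = 0.0444, adjusted p = 0.583), where 8.38% of all genes had an unadjusted p under 0.05, and 0.14 without WT 5.

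Junb (chr8:84974484-84978718, minus strand) encodes a Jun protein that dimerizes with Fos proteins. It was at 129, 185, 153, 213 and 192 in HT and at 165, 209, 169, 153 and 173 in WT. HT 1 was the lowest and HT 4 the highest library, so that the HT range enclosed the WT range. Junb had a log2 fold change of -0.01 (SE 0.140, 95% interval -0.31 to 0.29, exact permutation p = 0.944), with the opposite sign after quantile normalisation (0.01). Junb overlaps Prdx2 on the other strand, and the strand setting of the quantification is not given in the sources used here, so that reads of the overlap may be shared.

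The zinc-finger factors Egr1 to Egr4 bind the same GC-rich motif. Egr1, on chromosome 18, the member most widely used to map active neurons, was at 931, 824, 1069, 822 and 935 in HT and at 884, 1206, 956, 920.3 and 779 in WT. As with Fos, WT 2 was the highest and WT 5 the lowest library. The log2 fold change was -0.04 (SE 0.108, 95% interval -0.28 to 0.19, exact permutation p = 0.746), and without WT 2 it was 0.05.

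Egr2 (chr10:67535475-67542188, plus strand), known also for its part in hindbrain patterning and in Schwann cell myelination, was at 82.7, 52.9, 63.6, 72.7 and 58.6 in HT and at 55.6, 64.1, 51.6, 54.6 and 68.7 in WT. HT 1 and HT 4 lay above every WT library, and HT 2 lay near the lowest of all, WT 3. Egr2 had a log2 fold change of 0.15 (SE 0.156, 95% interval -0.18 to 0.49, exact permutation p = 0.294).

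Egr3 (chr14:70077203-70082614, plus strand), which takes part in muscle spindle development and in synaptic plasticity, was at 674, 594, 615, 414 and 678 in HT and at 594, 644, 629.5, 616 and 501 in WT. HT 4 was the lowest and WT 5 the next lowest library, while the other 8 lay between 594 and 678. The log2 fold change was -0.02 (SE 0.125, 95% interval -0.29 to 0.25, exact permutation p = 0.889), and without HT 4 it was 0.10 (95% interval -0.07 to 0.27).

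Egr4 (chr6:85511121-85513589, minus strand) was at 65.8, 70.1, 83.0, 95.3 and 107 in HT and at 74.9, 60.6, 85.8, 85.3 and 69.3 in WT. HT 4 and HT 5 exceeded every WT library, whereas HT 1 and HT 2 lay near the bottom of the range. Egr4 had a log2 fold change of 0.15 (SE 0.163, 95% interval -0.20 to 0.50, exact permutation p = 0.389).

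Npas4 (chr19:4984355-4990316, minus strand) encodes a bHLH-PAS factor that, unlike most members, is switched on in neurons by calcium alone and that regulates inhibitory synapses. It was at 482, 475, 449.7, 423 and 539 in HT and at 423, 434, 459.8, 442 and 439 in WT. HT 1, HT 2 and HT 5 lay above every WT library, HT 3 lay within the WT range, and HT 4 was the lowest of the 10. Npas4 had the smallest p of the members, with a log2 fold change of 0.10 (SE 0.0724, 95% interval -0.05 to 0.26, limma unadjusted p = 0.179, exact permutation p = 0.127), with 4 of 5 HT libraries above the WT mean, and ranked 2373 of 17020 genes by p. Without HT 4 the value was 0.14 (95% interval -0.01 to 0.29, limma unadjusted p = 0.0574, adjusted p = 0.606), and it was 0.17 when trends on length and GC content were also taken out (95% interval 0.02 to 0.32, limma unadjusted p = 0.0286, adjusted p = 0.576). Without HT 5 it was 0.055.

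Nr4a1 (chr15:101254269-101274795, plus strand) encodes an orphan nuclear receptor, also called Nur77, that acts without a known natural ligand. It was at 466, 450.0, 600.4, 529.8 and 606 in HT and at 513, 642, 476, 506 and 490.3 in WT. WT 2 lay well above the other 4 WT libraries, and the HT values ranged from below to above those 4. Nr4a1 had a log2 fold change of 0.01 (SE 0.106, 95% interval -0.22 to 0.24, exact permutation p = 0.952).

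**Figure D2:**
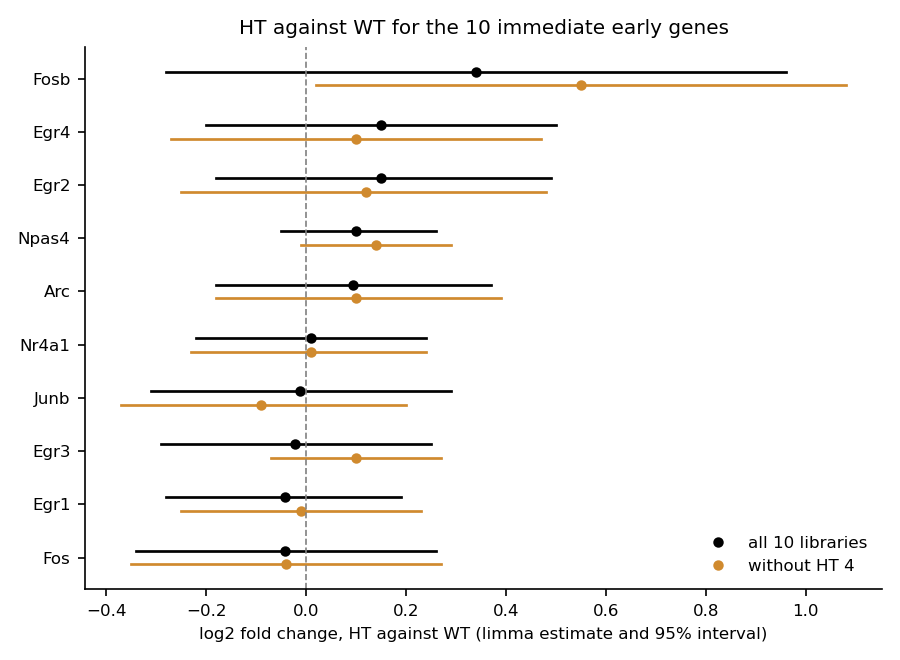
Log2 fold change of HT against WT (x axis, limma estimate on the log2(value + 1) scale with its 95% interval) for each immediate early gene (y axis), with all 10 libraries in black and without HT 4 in orange. All 10 black intervals include 0, and without HT 4 the interval of Fosb alone lies above it, from 0.02 to 1.08.

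Levels were then compared between genes per kilobase of the longest annotated transcript. Egr1 was the highest at 208 ± 28.2 normalised counts per kilobase (SD over 10 libraries), followed by Nr4a1 at 207 ± 25.8, Egr3 at 151 ± 20.6 and Npas4 at 120 ± 9.28. Fos was at 103 ± 15.9, Junb at 96.3 ± 14.5, Arc at 61.3 ± 8.48 and Egr4 at 37.1 ± 6.66. Egr2 at 21.1 ± 3.36 and Fosb at 14.7 ± 4.78 were the lowest. Egr1 and Nr4a1 did not differ beyond their spread, as Egr1 was the higher in 6 of 10 libraries, and Fos exceeded Junb in 7 of 10. The neighbouring pairs Nr4a1 and Egr3, Junb and Arc, Arc and Egr4, and Egr4 and Egr2 kept their order in 10 of 10 libraries. The pairs Egr3 and Npas4, Npas4 and Fos, and Egr2 and Fosb kept it in 9. With all annotated exons merged as the length, Egr1 stayed at 208 per kilobase while Nr4a1 was at 150 and Fosb at 8.91.

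At these levels the immediate early genes belonged to the lower and middle part of the transcriptome of the neonatal brain. Per kilobase, 2 of the 10, Egr1 and Nr4a1, lay above the median of the genes tested, at percentiles 55.7 and 55.5, and with merged exons as the length Egr3 was the other, at percentile 52.5. Fosb lay at percentile 13, Egr2 at 17.5 and Arc at 31.7.

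The spread between mice of the same genotype varied widely among the members. The residual SD on the log2 scale ranged from 0.0971 for Npas4 to 0.524 for Fosb, with a median of 0.222 against 0.159 over all genes tested. Because spread falls with level, each was set against the trend that limma fitted over all genes at the same level. Fosb was at 1.70 times its trend value, Egr1 at 1.74 times and Egr3 at 1.81 times, ratios larger than in 86.7%, 87.7% and 89.2% of all genes. Npas4 at 0.702 times and Egr2 at 0.738 times lay below the trend, with smaller ratios in 17.7% and 20.9% of all genes. In all, 7 of the 10 members lay above the trend, as did 52.3% of all genes tested. The counting error of reads at the mean level of a gene was computed with 1 unit taken as 1 read. Against it, the residual SD was 1.17 times as large for Egr2 and 1.44 times for Npas4, but 2.71 times for Fosb, 3.89 times for Egr3 and 4.17 times for Egr1. HT 4 and WT 5 held the 2 lowest values of both Egr3 and Fosb. Without HT 4 the residual SD of Egr3 was 0.126, or 1.16 times its trend value, and that of Fosb was 0.436, or 1.5 times, while Egr1 was at 2.13 times and 8 members lay above the trend.

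**Figure D3:**
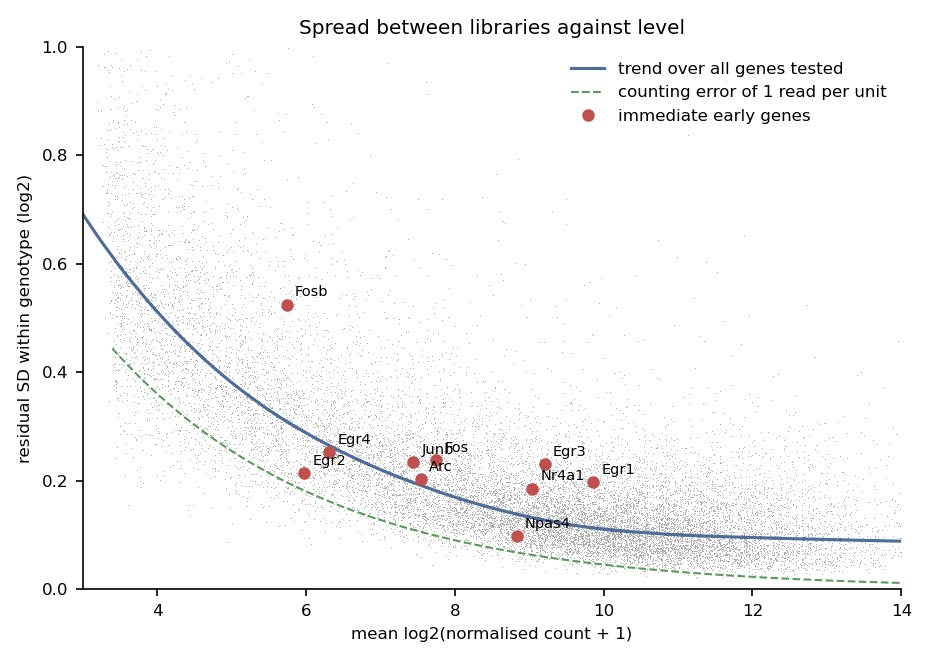
Residual SD within genotype on the log2 scale (y axis, ending at 1) against the mean log2 normalised count (x axis); grey points are the genes tested, red points the immediate early genes, the line limma's trend and the dashed line the error of counting reads alone. Fosb, at 0.524, lies far above the trend, and Npas4, at 0.0971, lies below it.

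To ask whether the genes moved together from mouse to mouse, each was expressed as its log2 deviation from its own mean over the 10 libraries. HT 5 had the highest average deviation over the members, 0.209, with 9 of 10 members above their mean and the highest values of Fosb, Egr3, Egr4 and Npas4. WT 2 followed at 0.170, with the highest values of Fos, Egr1 and Nr4a1 but the lowest of Egr4. WT 5 was the lowest at -0.216, with 2 members above their mean and the lowest values of Fos, Fosb and Egr1. The average was 0.108 in HT 3, and the remaining 6 libraries lay between -0.0814 and 0.00556. High libraries were thus found in both genotypes, and the lowest was a WT library.

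**Figure D4:**
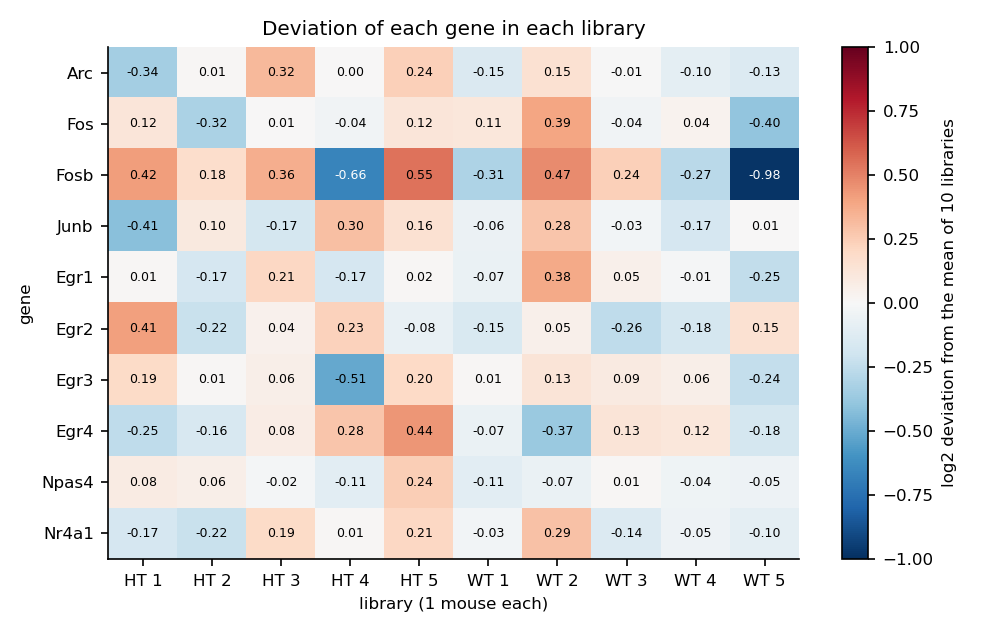
Log2 deviation of each immediate early gene (rows) from its mean over 10 libraries, in each library (columns, 1 mouse each); red is above and blue below the mean. HT 5 and WT 2 are mostly red and WT 5 mostly blue, while HT 4 is low for Fosb and Egr3 and high for Junb.

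Over the 45 pairs of members the median Pearson correlation was 0.158 (n = 10 libraries), against -0.001 over all 144.8 M pairs of genes tested. The correlation was positive for 31 pairs, 68.9% against 49.9% of all pairs. The pairs share libraries and genes, so that these values are a description. After Benjamini-Hochberg adjustment over the 45 pairs, 0 passed 0.05, with 6 at an unadjusted Pearson permutation p under 0.05 and 5 at such a Spearman p. The median was 0.200 without HT 4, with 37 of 45 pairs positive, and it was 0.029 without HT 5.

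Fosb and Egr3 had the highest correlation, r = 0.821 (permutation p = 0.00386, adjusted 0.157) and rho = 0.891 (permutation p = 0.00113, adjusted 0.0508). Without WT 5 and HT 4, the libraries farthest from the Fosb median, r was 0.712. With the genotype means removed, r was 0.893 and the pair passed the adjustment as the 1 pair that did so. That permutation shuffled over all 10 libraries and took no account of the removed means, so its p may be too small. Fos and Egr1 followed with r = 0.796 (permutation p = 0.00731, adjusted 0.157) and rho = 0.600 (permutation p = 0.0728, adjusted 0.405). For this pair r was 0.436 without WT 5 and WT 2, the libraries farthest from the Fos median. Leaving out the extremes narrows the range, which can lower r by itself. Arc and Nr4a1 had r = 0.760 (permutation p = 0.0105, adjusted 0.157) and rho = 0.588 (permutation p = 0.0810, adjusted 0.405), and r was 0.701 without HT 1 and HT 3.

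Egr1 had the highest typical correlation with the other members (median r 0.502), including Fosb and Nr4a1. With Fosb, r was 0.71 (permutation p = 0.0202, adjusted 0.202) and rho was 0.830 (permutation p = 0.00491, adjusted 0.110), and r was 0.476 without WT 5 and HT 4. With Nr4a1, r was 0.705 (permutation p = 0.0224, adjusted 0.202) and rho was 0.467 (permutation p = 0.180, adjusted 0.623), and r was 0.508 without WT 2 and WT 5. Egr2 (median r -0.133), Egr4 (-0.0267), Junb (0.00580) and Npas4 (0.0389) had medians near or below 0. Without HT 4 these were 0.0537 for Egr2, 0.175 for Egr4, 0.0750 for Junb and 0.0642 for Npas4. The lowest correlation, between Junb and Egr3, was -0.448, and it was 0.261 without HT 1 and HT 4. Of these, Egr2, Npas4 and Egr4 had the residual SDs closest to the counting error, at 1.17, 1.44 and 1.56 times.

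**Figure D5:**
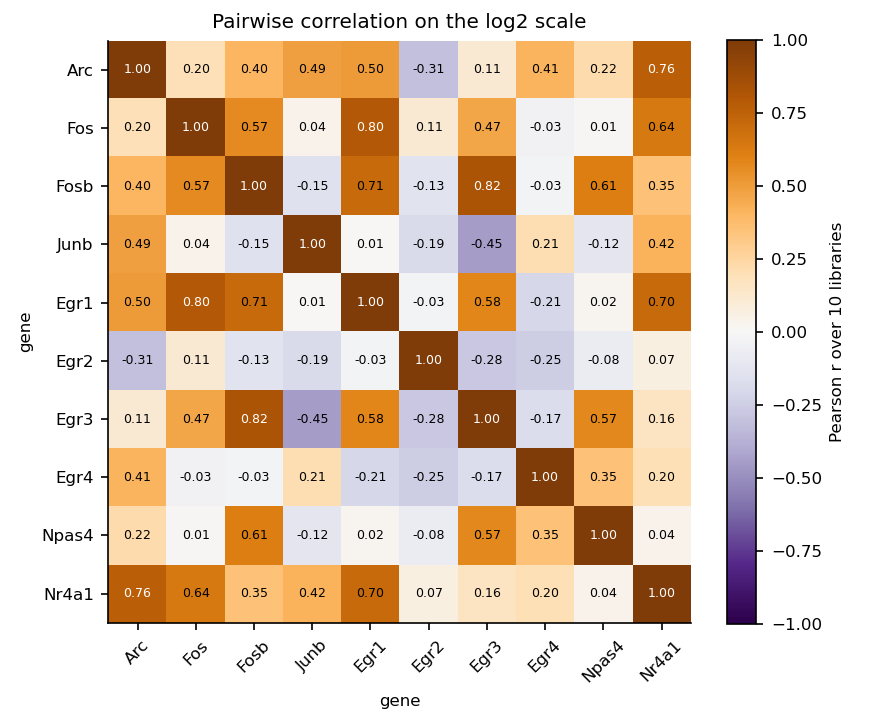
Pearson r over 10 libraries for each pair of immediate early genes, on log2(value + 1); orange is positive and purple negative. The block of Fos, Fosb, Egr1 and Egr3 is positive throughout, from 0.47 to 0.82, and the row of Egr2 is near 0 or negative.

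The genes with the profile most like the average deviation of the members, among 12819 genes with a mean of at least 100, were Tbkbp1 (r = 0.893), Sirpa (0.875), Srxn1 (0.868), Mpp5 (0.859) and Cyp4x1 (0.842). The least alike were Zbtb17 (-0.934), Siah1a (-0.932) and Gatb (-0.910). They were picked as the extremes of all genes compared, over 10 libraries, and no p was attached. The median correlation with the member profile was 0.221 over the 20 late-response genes and 0.0430 over the 30 other primary response genes, against 0.0153 over all genes tested. Values like that of the late-response genes were found for lists of other kinds, with 0.255 for GABAergic markers, 0.215 for the upstream regulators, 0.188 for markers of all neurons and 0.154 for glutamatergic markers. The median was -0.281 for choroid plexus markers.

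Among relatives and partners of the members (Jun, Jund, Fosl2, Nr4a2, Nr4a3, the EGR co-repressors Nab1 and Nab2, and the Npas4 partners Arnt and Arnt2), 0 of 9 genes tested had an adjusted or an unadjusted limma p under 0.05. Their median log2 fold change was -0.08, with 1 gene higher in HT, but without HT 4 it was -0.02 with 4 higher. The 3 genes with the smallest p were Nr4a2 (log2 fold change -0.19, SE 0.127), which marks and maintains dopamine neurons, Nab1 (-0.08, SE 0.0679) and Fosl2 (-0.09, SE 0.0954). Each was nearer to 0 without HT 4, at -0.06, -0.03 and 0.00.

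Of 30 other primary response genes, 0 had an adjusted or an unadjusted limma p under 0.05, and 12 were higher in HT (median log2 fold change -0.02). Without HT 4 the median was -0.06 and 1 gene, Ier5, had an unadjusted p under 0.05, where 628 of 17015 genes were lower at that threshold. The log2 fold change of Ier5 was then -0.18. The smallest p belonged to Zfp36, which speeds the decay of AU-rich messenger RNAs (log2 fold change -0.31, SE 0.146). It was at 80.5 ± 11.7 (SD, n = 5) in HT and 100.4 ± 17.1 in WT. Rgs2, a regulator of G protein signaling, had a log2 fold change of 0.19 (SE 0.0901), and Cebpb, a bZIP factor, had one of 0.42 (SE 0.219) at a mean of only 39.1 in HT and 28.4 in WT.

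Late-response genes encode the peptides, receptors and synaptic proteins induced after these factors. Of the 20 tested, 0 had an adjusted p under 0.05, and 4 had an unadjusted limma p under 0.05, each higher in HT, where 1.47% of all genes were. The median log2 fold change was 0.04, with 13 of 20 higher. Without HT 4 the number was 5 of 20, where 4.69% of all genes were higher at that threshold, and the median was 0.08. Nptx2 was then no longer among them, while Homer1, a scaffold of glutamate receptors (0.13), and Sorcs3, a sorting receptor (0.18), both named after their values were seen, were.

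Tac1, the precursor of substance P, was at 667 ± 82.9 (SD, n = 5) in HT and 524 ± 44.0 in WT, a log2 fold change of 0.34 (SE 0.0918, limma unadjusted p = 0.00252, exact permutation p = 0.0159, adjusted p = 1.00). Scg2, a granin of dense-core vesicles, was at 6133 ± 509.6 in HT and 5459 ± 240.0 in WT, a log2 fold change of 0.17 (SE 0.0591, exact permutation p = 0.0159). Nptx2, which clusters AMPA receptors, was at 503 ± 65.2 in HT and 426.5 ± 22 in WT, a log2 fold change of 0.23 (SE 0.0886, exact permutation p = 0.0556). The other gene was Nrn1, a membrane-anchored neuritogenic protein named after its values were seen, with a log2 fold change of 0.23 (SE 0.0916). The lowest HT library of Nrn1 (1294) lay above the highest WT library (1274), and 0.629% of all genes had groups that did not overlap. Each value was smaller without HT 4, at 0.28 for Tac1, 0.12 for Scg2, 0.17 for Nptx2 and 0.13 for Nrn1. The summed level of the list was 35025 to 37208 in HT and 33516 to 34692 in WT. The largest parts of the sum were Syt4 (mean 10924 in HT, 10631 in WT), Scg2 and Lingo1 (5336 in HT, 5461 in WT). The sum is thus weighted to a few abundant genes, and 7 of the 20 genes were lower in HT.

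Upstream of the members, the 30 channels, kinases and transcription factors gave 0 genes with an adjusted or an unadjusted limma p under 0.05, with 11 higher in HT and a median log2 fold change of -0.03. Without HT 4, 27 of the 30 were higher, with a median of 0.06 and 6 at an unadjusted p under 0.05, each higher, where 4.69% of all genes were, so that the direction of this list turned on that library. Camk2d, a calmodulin-dependent kinase, had the smallest p (log2 fold change 0.07, SE 0.0514), followed by Creb1 (-0.14, SE 0.115) and the CREB coactivator Crtc2 (-0.10, SE 0.0926). Creb1 was at -0.02 and Crtc2 at -0.05 without HT 4.

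Markers of cell types and of tissue stress were read in the same fit, and 0 of them had an adjusted p under 0.05. The heat shock and stress list, which handling can move, had a median log2 fold change of 0.07, with 8 of 10 genes higher in HT. Of these, 1 had an unadjusted p under 0.05, where 1.47% of all genes were higher. Without HT 4 the median was 0.03 with 0 such genes. The summed levels of the stress list overlapped (96122 to 105783 in HT, 94644 to 102962 in WT). For 10 markers of GABAergic neurons the median was 0.09, and 0.08 without HT 4, with 7 higher and 3 lower in HT (Dlx1, Dlx2 and Dlx5). At an unadjusted p under 0.05 were 2 genes, both higher in HT, where 1.47% of all genes were. These were the peptide genes Npy (0.23) and Sst (0.20). Without HT 4 the 2 genes were Npy (0.22) and Gad2 (0.16), where 4.69% of all genes were higher at that threshold. Sst (0.13) was then no longer among them. Npy, Sst and Gad2 were named after their values were seen. The summed level of the GABAergic list was 19327 to 21331 in HT and 18653 to 19542 in WT. Other neuronal and astrocyte lists turned on HT 4. The median of 10 forebrain glutamatergic markers was -0.06 with 2 higher, and 0.03 with 7 higher without HT 4 (summed level 44322 to 58925 in HT and 51690 to 55481 in WT). That of 10 markers of all neurons was 0.004 with 5 higher, and 0.06 with 9 higher without HT 4 (209108 to 249398 and 230629 to 238257). That of 10 astrocyte markers was 0.03, and -0.03 without HT 4. Without HT 4, 2 markers of all neurons and 2 astrocyte markers had an unadjusted p under 0.05, where 8.38% of all genes did. Microglial markers were lower in HT in 10 of 10 (median -0.19) and erythroid genes higher in 6 of 6 tested (median 0.48), and 46.4% of all genes were higher. In either list, 0 had an unadjusted p under 0.05. Summed levels overlapped for both, at 2005 to 3035 in HT and 2150 to 3617 in WT for the microglial list. For the erythroid list they were 5960 to 13733 in HT and 4528 to 13889 in WT. Without HT 4 the microglial median was -0.30, with 2 genes at an unadjusted p under 0.05, both lower. At that threshold 628 of 17015 genes were lower, and 8.38% of all genes differed in either direction. The erythroid median was then 0.42. The median of 14 vascular genes was -0.04 with 0 at an unadjusted p under 0.05. Without HT 4 it was -0.09 with 3 such genes, where 8.38% of all genes had such a p. The median of 10 meningeal genes was -0.12, with 3 higher in HT. Of these, Aldh1a2 (0.18) was the 1 gene at an unadjusted p under 0.05, where 1.47% of all genes were higher. Without HT 4 the meningeal median was -0.15, and the 1 such gene was Lum, lower in HT (-0.58), where 628 of 17015 genes were lower at that threshold. Aldh1a2 and Lum were named after their values were seen. Choroid plexus markers were lower in HT in 9 of 10, with a median of -0.42 and 5 at an unadjusted p under 0.05, where 1.93% of all genes were lower. Without HT 4 the choroid plexus median was -0.375. Then 7 had an unadjusted p under 0.05, of which 1 was higher in HT, where 8.38% of all genes had such a p. The summed levels of this list did not overlap (7147 to 10102 in HT, 10710 to 14421 in WT), but most of the sum was Ttr. Ttr alone was at 6181 to 9013 in HT and 9509 to 12998 in WT, and 0.629% of all genes had groups that did not overlap. Folr1, of the same list, overlapped (51.8 to 69.3 in HT, 53.6 to 122 in WT). The part of these cell types in the values of the immediate early genes was not tested.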

How the data were processed

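Whole-brain RNA of 10 male mice was sequenced as stranded poly-A libraries. Per the study's methods and the submitters' processing notes, the authors quantified paired-end reads with Salmon 1.1.0 on GRCm38 with GC bias correction, imported them to genes and normalised them with DESeq2 1.30.1, by size factors with or without a length correction. The deposited unit is thus a signal, a normalised read count. Of small values, 22.2% to 59.8% per library were whole multiples of 1 read (tolerance 0.05), so whole reads were not recovered, count tests were not run, and counting error was not modelled in the tests. The annotation release, strand setting and low-gene filter are not given in the sources used here.

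Symbols, positions and lengths came from GENCODE M21 (18431 of 18444 genes matched). Genes with a mean of at least 10 (17020) were fitted as log2(value + 1) in limma 3.58.1 (R 4.3.3), by limma-trend with robust empirical Bayes, two-sided, without covariates, with Benjamini-Hochberg adjustment over all genes. Fold changes on this scale understate low genes. The workflow was tested on simulated data. Each exact permutation test ran over 252 assignments of libraries. Pair p-values used 100000 permutations (scipy 1.17.1). Groups and replicate numbers came from the labels. Litters are not given, so p-values measure the spread between these mice. Named genes were all members, the 3 genes of each other activity list with the smallest p, and the 5 most and 3 least alike genes. Members and lists were chosen with earlier results of these data known, and the fit without HT 4 and the length and GC trend was added after seeing the data.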

Additional observations from a re-analysis of the deposited data

Results flagged for a closer look

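Nr4a1 in the WT group was flagged because WT 2, at 642 normalised counts, lay far from the other 4 WT libraries, which ranged from 476 to 513; its gap to the nearest of them was 0.776 of the range of the group. Of 22 groups of 5 libraries checked in this way (each member and the mean deviation of the members, in HT and in WT), 1 was flagged, and chance flags about 1 in 20. Without WT 2 the log2 fold change of Nr4a1 was 0.08, against 0.01 with all libraries.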

How the results depend on the processing

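Under 21 alternatives (pseudocount, filter, scaling, sample weights, trend removal, replicate block and leaving out each library), 0 members passed the adjusted threshold in any, with a smallest adjusted p of 0.576, and 193 of 210 member values kept their direction. Arc, Fosb, Egr2, Egr4 and Npas4 kept it under all 21, though their size moved. The filters, the fit without the robust step and the replicate block cannot change the fold change of a member. The direction under these settings was thus fixed in advance. Egr3 turned positive with sample weights (0.056), Junb after quantile normalisation (0.009), and, without HT 4 and with the length and GC trend removed, Egr1 (0.015) and Egr3 (0.119). When each library was left out in turn, the log2 fold change ranged from -0.148 to 0.049 for Fos, -0.089 to 0.091 for Junb, -0.110 to 0.048 for Egr1, -0.083 to 0.103 for Egr3 and -0.040 to 0.084 for Nr4a1. It ranged from 0.025 (without HT 3) to 0.191 (without HT 1) for Arc, 0.137 (without WT 5) to 0.547 (without HT 4) for Fosb, 0.070 (without HT 1) to 0.229 (without HT 2) for Egr2, 0.059 (without HT 5) to 0.232 (without HT 1) for Egr4 and 0.055 (without HT 5) to 0.143 (without HT 4) for Npas4, and the median over members ranged from 0.003 to 0.102. Over all genes, 2 passed the threshold, against 0, with sample weights, with the trend removed, without HT 4 (range 0 to 2 over single libraries left out) and without HT 4 with the trend removed; the cause was not tested. With merged exons as the length, 3 members against 2 lay above the median level. Removing the genotype means let 1 pair of members pass, against 0, by a permutation p that may be too small there. The labels do not say that a replicate number marks a shared litter or batch, so libraries were not treated as paired. Correlations of same-numbered libraries ranged from -0.104 to 0.0926, and 4 of 5 correlated best with their own number, a hint of pairing from the data and not from the design. With the number as a replicate block, 0 genes passed. Each number occurs once in each genotype, so the block leaves every fold change as it was, that of Fosb at 0.34. With 5 mice a group, the narrowest 95% interval, that of Npas4, ran from -0.05 to 0.26 and the widest, that of Fosb, from -0.28 to 0.96. Differences within these intervals were not excluded by the data.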
